A study of Mus musculus with 32 samples.

Results

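Lung RNA of male mice that breathed cigarette smoke for 5 months was compared with that of male mice kept in room air for the same 5 months. All were of the strain C57B/6 and none had surgery. The comparison takes in the libraries whose labels give male sex and no surgery, which are 8 of the 32 libraries in the series: 5 from smoke (smoke 1 to smoke 5) and 3 from air (air 1 to air 3). Poly(A) RNA was sequenced, and of 35275 genes in the deposited counts, 16361 had enough counts to be tested. The series also holds 8 libraries of females treated in the same way, which are used below to ask where the sexes differ, and 16 libraries of females exposed to smoke after ovariectomy or a sham operation, which are not described here. The dose of smoke and the hour at which the lungs were collected were not given in the sources used here.

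The gas-exchange surface of the lung is made of alveoli, thin walls in which flat alveolar type 1 cells lie against a dense net of capillaries, with cuboidal type 2 cells that make surfactant. Fibroblasts and pericytes of the wall lay down collagen and elastic fibres, the scaffold that is lost or remodelled in emphysema, which long smoke exposure can bring about in mice. Lung cells also run a circadian clock, a feedback loop in which BMAL1 and CLOCK switch on the Per and Rev-erb genes, whose products switch BMAL1 and CLOCK activity or transcription off again, and adrenal glucocorticoids feed into the same loop.

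Total counts were 16.78 to 17.08 megacounts in the air libraries and 13.84 to 20.78 megacounts in the smoke libraries. Levels are given as CPM (counts of a gene for each megacount of the library), scaled by the trimmed mean of M values (TMM), and are compared between libraries, not between genes. The surfactant gene Sftpc, which marks type 2 cells, stood at 23898, 21528 and 20371 CPM in air and 26599, 25681, 25797, 23190.0 and 24195 CPM in smoke, so the lung label holds in all 8. The Y-linked Ddx3y lay between 68.0 and 96.2 CPM, and Xist, which silences the second X in females, between 0.637 and 3.99 CPM, as the male label says. Nothing in the labels says that each library is from a different mouse, so the p-values measure the spread between these libraries, which may be technical.

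Some libraries stood apart. Air 3 had more heat shock RNA than the others, 9549 CPM summed over the list of heat shock genes against 5090 to 6512 CPM in the other 7, and its Cyp1a1, an enzyme induced through the aryl hydrocarbon receptor, was at 172 CPM against 7.36 to 18.8 CPM. Red cell RNA was 12231 CPM in air 3 and 4035 and 5005 CPM in air 1 and air 2, against 9445 to 12215 CPM in smoke. RNA of liver genes was 637 CPM in air 1, 159 CPM in air 2 and 17.8 to 30.3 CPM in the other 6. Club cell RNA, from secretory cells of the airway, ran from 7421 CPM in smoke 1 to 40129.9 CPM in smoke 4, and the 3 air libraries lay within that range. Counts and calls below are therefore also given without single male libraries where that ends a call or moves a count by over 1.5 times.

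**Figure D1:**
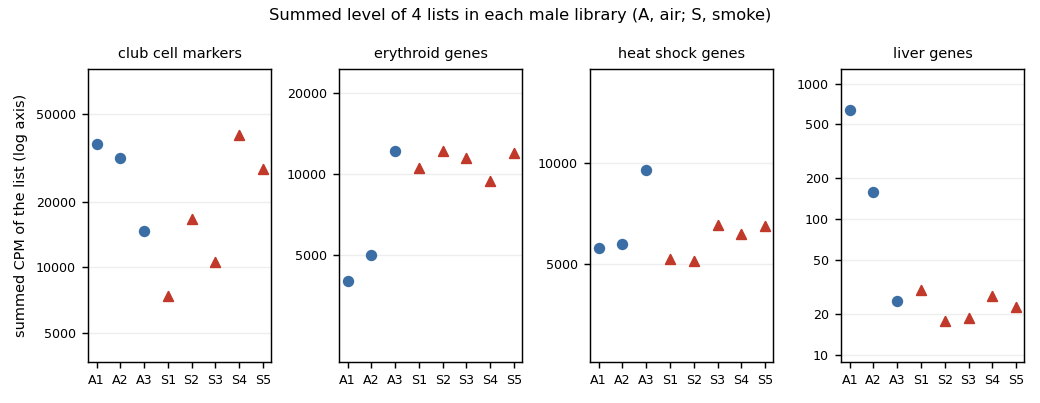
Summed CPM of club cell, erythroid, heat shock and liver genes (log axis) in each of the 3 air (A) and 5 smoke (S) libraries of males. Air 3 is the highest for heat shock genes, air 1 for liver genes, and the club cell values of the 2 groups overlap.

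edgeR's quasi-likelihood test with Benjamini-Hochberg adjustment called 1678 of the 16361 genes at an adjusted p under 0.05, or 10.3%. Of these, 806 were higher in smoke (4.93% of genes tested) and 872 were lower (5.33%). Most changes were small. The median log2 fold change was 0.47 among the genes called higher and -0.56 among those called lower, against 0.007 over all genes, and 243 genes (1.49%) were called with a change of at least 2-fold. The values of the 2 groups did not overlap in 2753 genes (16.8%). Without air 3 the count of called genes was 962, of which 858 were among the 1678. Without air 1 or air 2 the share of called genes that were higher fell from 48.0% to 35.3% or 36.9%, with 510 and 421 genes higher.

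**Figure D2:**
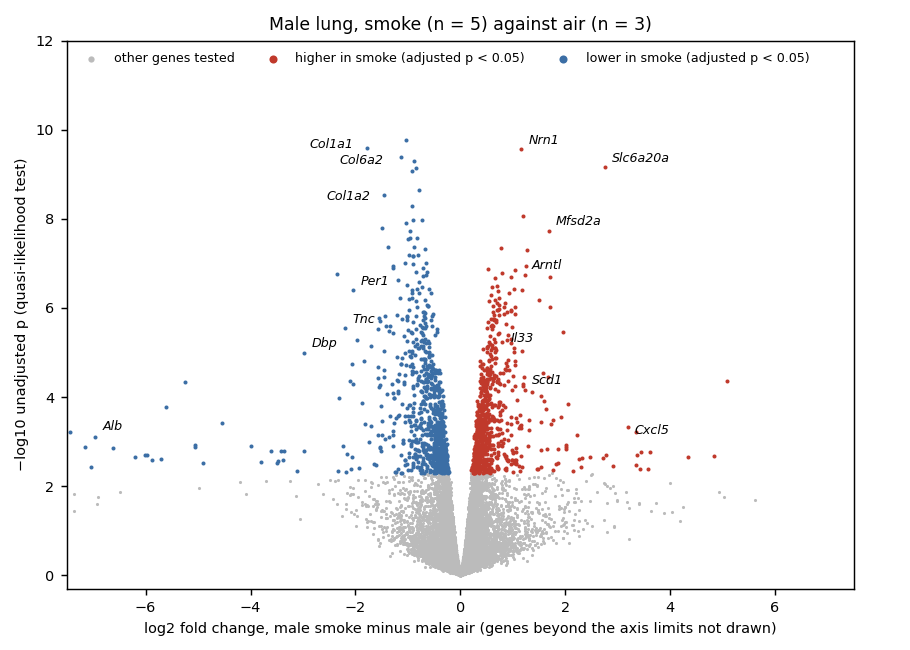
Log2 fold change (male smoke minus male air) against -log10 of the unadjusted p for each gene tested, with 22 genes beyond the horizontal limits not drawn. The 806 genes called higher (red) and the 872 called lower (blue) lie on both sides, with collagen and clock genes among the strongest.

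The largest rises among called genes with mean log2 CPM of at least 1 and groups apart included transporters. Slc6a20a, an amino acid transporter, stood at 1.06, 1.06 and 1.37 CPM in air and 9.67, 9.06, 9.29, 4.51 and 6.89 CPM in smoke. Each smoke library was over each air library, and the fitted rise was 6.75-fold (log2 2.75 ± 0.26 SE, adjusted p = 1.68e-06). Nrn1, a small surface protein first described in neurons and chosen here after its values were seen, was at 22.2, 19.3 and 24.5 CPM in air and 51.3, 45.6, 45.1, 48.7 and 54.9 CPM in smoke. The 2 groups lay far apart beside the spread within each (2.23-fold higher, log2 1.16 ± 0.10 SE, adjusted p = 1.47e-06). Mfsd2a, a transporter of lysophospholipids, was at 3.40, 3.40 and 4.28 CPM in air and 14.3, 11.1, 14.2, 10.2 and 9.77 CPM in smoke (3.21-fold higher, log2 1.68 ± 0.19 SE, adjusted p = 1.72e-05). Rab3c, a small GTPase of vesicle release, Ric3, a chaperone of acetylcholine receptors, and Gpr137c rose 3.27-fold, 3.27-fold and 3.87-fold. These 6 calls held without each of the 8 male libraries in turn. Among the largest falls, Sprr1a, a cornified envelope protein of squamous epithelium, was at 7.56, 4.23 and 4.70 CPM in air and 1.19, 1.87, 0.608, 0.834 and 0.918 CPM in smoke (5.07-fold lower, log2 -2.34 ± 0.31 SE, adjusted p = 6.64e-05), with no overlap. Gprc6a, a receptor for amino acids, was 3.27-fold lower (adjusted p = 0.00994), a call that was lost without air 3.

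In each list of extracellular matrix genes below, more members were called lower in smoke than higher. Of 9 fibrillar collagen genes tested, 6 were lower in smoke and none was higher, with a list median of log2 -0.97 against 0.007 over all genes. Col1a1 (chr11:94936224-94953042), which codes for the main chain of collagen I, stood at 635, 689.8 and 971 CPM in air and 206, 223, 242, 243 and 209 CPM in smoke. Its highest smoke library was far under its lowest air library, and the level was 3.41-fold lower (log2 -1.77 ± 0.14 SE, adjusted p = 1.47e-06). Col3a1 (chr1:45311538-45349706), the chain of collagen III, stood at 1017, 1164 and 1777 CPM in air and 460.1, 498, 467, 459 and 464 CPM in smoke. The smoke libraries lay close together and air 3 was the highest of the air libraries (2.81-fold lower, log2 -1.49 ± 0.15 SE, adjusted p = 1.63e-05). Col5a1 and Col5a2, chains of the collagen V that starts new fibrils, fell 1.96-fold and 1.87-fold (adjusted p = 0.000147 and 3.77e-05). Without each male library in turn the calls of Col1a1, Col1a2, Col3a1, Col5a1 and Col5a2 held, while that of the sixth gene, Col27a1 (log2 -0.57, adjusted p = 0.0472), was lost without any 1 of 7 of the 8. In bulk tissue a fall in the number of cells of a type and a fall in RNA per cell cannot be told apart, which holds for every group of genes below.

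Among 23 genes of basement membrane and other collagens, 11 were lower and 1 was higher (median log2 -0.47), and the number lower was 6 without air 3, while 2 were higher without smoke 4. The 3 chains of the beaded collagen VI moved together. Col6a1 stood at 491, 539 and 658 CPM in air and 283, 294, 284, 249 and 255 CPM in smoke (2.06-fold lower, log2 -1.04 ± 0.09 SE, adjusted p = 1.47e-06), and Col6a2 and Col6a3 were 2.19-fold and 2.01-fold lower (adjusted p = 1.62e-06 and 0.000229). No smoke library reached an air library in any of the 3. In the basement membrane, Col4a1, a chain found in nearly all basement membranes, was at 835, 922 and 1387 CPM in air and 743, 667, 718, 573 and 567 CPM in smoke (1.60-fold lower, log2 -0.68 ± 0.14 SE, adjusted p = 0.00333). Col4a3, a chain of the specialised membrane under type 1 cells, went the other way, at 234, 215 and 239.8 CPM in air and 383, 311, 374, 239 and 286 CPM in smoke (1.39-fold higher, log2 0.47 ± 0.13 SE, adjusted p = 0.0262). Smoke 4 overlapped with air there, and the call of Col4a3 was lost without any 1 of the air libraries, smoke 1 or smoke 3. Col16a1 and Col15a1, which lie at the border of fibrils and basement membranes, fell 1.90-fold and 2.17-fold.

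The enzymes that fold, trim and cross-link collagen moved in both directions, with 9 of 28 lower and 3 higher (median log2 -0.35). Adamts2, which cuts the N-terminal propeptide off collagen, stood at 106, 114 and 145 CPM in air and 66.3, 64.9, 60.99, 64.04 and 52.7 CPM in smoke (1.97-fold lower, log2 -0.98 ± 0.12 SE, adjusted p = 3.77e-05). Fkbp10, a collagen chaperone, was at 40.9, 34.6 and 41.97 CPM in air and 21.3, 22.6, 18.2, 19.3 and 19.5 CPM in smoke (1.94-fold lower, log2 -0.96 ± 0.11 SE, adjusted p = 1.72e-05). In both genes the groups were well apart. The cross-linking oxidases Loxl1 and Loxl2 fell 1.76-fold and 1.80-fold, and the lysyl hydroxylase Plod1 fell 1.48-fold (adjusted p = 3.77e-05, 0.000152 and 0.00249). A second lysyl hydroxylase, Plod2, which favours the hard cross-links of scar collagen, was at 87.7, 73.95 and 86.9 CPM in air and 127, 110.0, 119.9, 101 and 115 CPM in smoke. All 5 smoke libraries were over the air libraries (1.38-fold higher, log2 0.47 ± 0.10 SE, adjusted p = 0.00385). Without air 1 the number of these enzymes called higher was 1.

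Among elastic fibre genes several of the microfibril sheath fell. Of 17 tested, 9 were lower and none was higher (median log2 -0.68), with 2 higher at an unadjusted p under 0.05, 0 by DESeq2 and 1 by edgeR without smoke 4. Eln, which codes for elastin itself, was at 286, 336 and 749 CPM in air and 243, 367, 281, 259.7 and 250.5 CPM in smoke (log2 -0.70, adjusted p = 0.0997). Air 3 was far over the other air libraries, which lay within the range of smoke, and Eln did not pass the test. Fbn1, coding for fibrillin-1, stood at 139, 186 and 243 CPM in air and 104, 104, 93.2, 98.3 and 95.7 CPM in smoke (1.91-fold lower, log2 -0.94 ± 0.14 SE, adjusted p = 0.000378). Ltbp1, which stores latent TGF-beta in microfibrils, was at 149, 148 and 170.4 CPM in air and 80.8, 86.1, 90.7, 92.1 and 99.8 CPM in smoke (1.73-fold lower, log2 -0.79 ± 0.08 SE, adjusted p = 3.98e-06). There was no overlap in either gene. Ltbp2, Fbln2, Mfap2, Emilin1, Fbln1, Mfap5 and Efemp2 fell 2.07-, 1.86-, 1.66-, 1.66-, 1.69-, 1.60- and 1.32-fold. All 9 calls held without each male library in turn.

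Of 19 matricellular and adhesive glycoproteins, 8 were lower and 1 higher (median log2 -0.36). Tnc, coding for tenascin-C, a protein of growing and injured tissue, stood at 22.9, 29.8 and 34.3 CPM in air and 3.12, 5.26, 8.57, 7.31 and 7.08 CPM in smoke (4.59-fold lower, log2 -2.20 ± 0.30 SE, adjusted p = 0.000328). Thbs1, which activates latent TGF-beta, was at 252, 299 and 377 CPM in air and 99.4, 118, 136, 144 and 129.8 CPM in smoke (2.47-fold lower, log2 -1.30 ± 0.22 SE, adjusted p = 0.00218). In both, every smoke library was under every air library. Fn1 (fibronectin) and Ctgf, a matrix protein induced by TGF-beta and by stretch, fell 1.40-fold and 1.42-fold (adjusted p = 0.0105 and 0.00345). The gene that rose was Spp1, coding for osteopontin, a secreted protein of macrophages and injured epithelium. It was at 65.03, 64.4 and 87.7 CPM in air and 181, 151, 113, 171 and 174 CPM in smoke (2.18-fold higher, log2 1.12 ± 0.24 SE, adjusted p = 0.0106), with the groups apart, and its call was lost without air 1 or air 2. The list had 2 genes higher without smoke 4 or smoke 5. Among 12 proteoglycans 3 fell and 1 rose: Vcan, Podn and Prelp fell 1.91-, 1.77- and 1.39-fold, while Ogn (osteoglycin) was at 298, 327 and 344 CPM in air and 538, 447, 539, 550.4 and 625 CPM in smoke (1.67-fold higher, log2 0.74 ± 0.11 SE, adjusted p = 0.000143).

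Proteases and their inhibitors gave no single direction. Of 16 matrix metalloproteinases and their tissue inhibitors, 5 were lower and 2 higher (median log2 -0.12), with 3 lower without air 3, and 0 to 3 higher as single male libraries were left out. Mmp12, the macrophage elastase known for its part in smoke-induced emphysema in mice, stood at 3.17, 7.04 and 6.42 CPM in air and 4.91, 4.62, 5.42, 5.54 and 4.92 CPM in smoke. The smoke values lay within the range of the air values (log2 -0.12, adjusted p = 0.831). Mmp2, a gelatinase of fibroblasts, was at 115, 135 and 246 CPM in air and 65.00, 67.4, 70.3, 74.9 and 68.1 CPM in smoke (2.39-fold lower, log2 -1.26 ± 0.23 SE, adjusted p = 0.00362), and the inhibitor Timp1 was at 16.1, 16.2 and 13.02 CPM in air and 10.5, 9.35, 4.31, 7.01 and 6.23 CPM in smoke (2.03-fold lower, log2 -1.02 ± 0.23 SE, adjusted p = 0.00517). Neither overlapped between groups. Among 12 antiproteases 4 fell and 1 rose. The number that fell was 2 without air 1 or smoke 2, and the rise was lost without air 2, air 3, smoke 1, smoke 4 or smoke 5. The genes that fell include Serpina1a and Serpina1d, made mainly in liver (log2 -6.21 and -8.59). Liver RNA was high in air 1 and air 2, as given above, and its part in these falls was not tested.

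**Figure D3:**
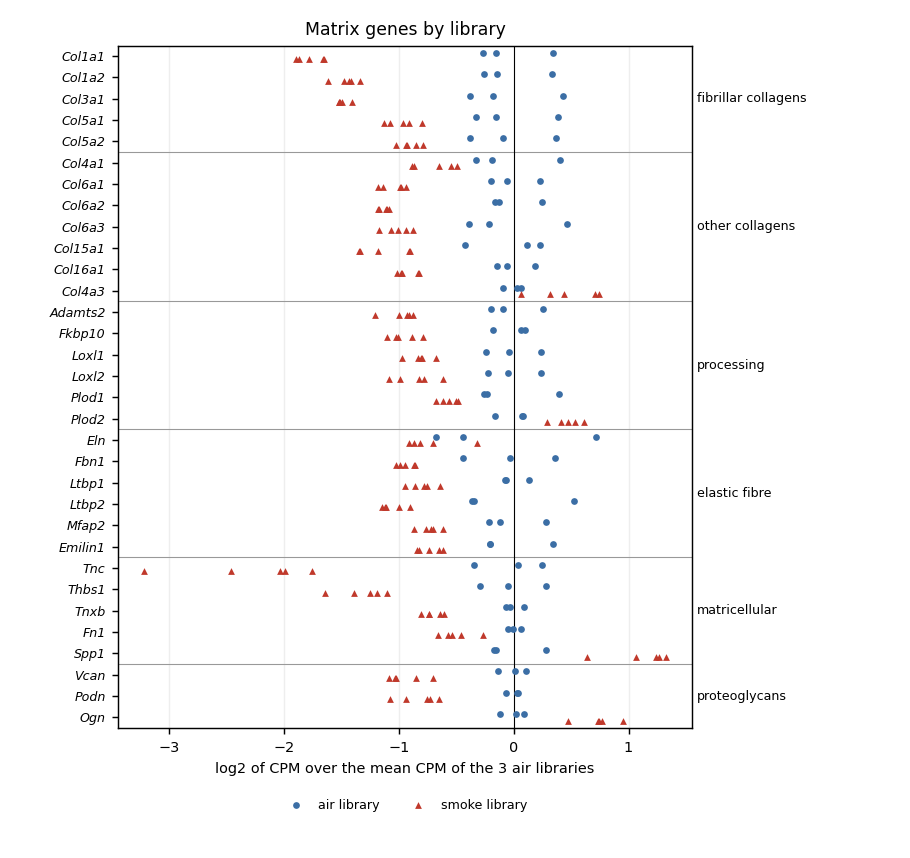
Log2 of CPM over the mean of the 3 air libraries for matrix genes, with air libraries as circles and smoke libraries as triangles. Smoke triangles lie left of the air circles for the fibrillar collagens, and right of them for Plod2, Spp1 and Ogn.

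Some markers of the cells that hold the capillary wall were lower. Of 12 pericyte markers, 7 were lower and none higher (median log2 -0.46), and 3 were lower without air 3. The summed level of the list was 748, 803 and 1026 CPM in air and 549, 602, 605, 617 and 651 CPM in smoke. Notch3, a receptor that keeps mural cells in place, stood at 79.7, 85.4 and 106 CPM in air and 41.3, 50.4, 59.9, 53.2 and 45.6 CPM in smoke (1.80-fold lower, log2 -0.85 ± 0.15 SE, adjusted p = 0.00156). Ndufa4l2 was at 27.97, 26.5 and 30.3 CPM in air and 15.2, 16.01, 19.7, 15.5 and 14.4 CPM in smoke (1.75-fold lower, log2 -0.80 ± 0.14 SE, adjusted p = 0.000667). Both were separate between groups and held without each library, as did Pdgfrb, the receptor for platelet-derived growth factor B (1.87-fold lower, adjusted p = 0.00525). Only 2 of 13 smooth muscle contractile genes were called, both lower (median log2 -0.41), and that number was 1 without air 1 or air 3 and 6 without smoke 4. Myh11, the smooth muscle myosin, was at 69.6, 88.6 and 76.6 CPM in air and 35.03, 43.3, 39.98, 103 and 55.3 CPM in smoke (log2 -0.50, adjusted p = 0.336), and smoke 4, the library with the most club cell RNA, was over all 3 air libraries. Of markers of the fibroblast sheath around airways and vessels, Pi16 fell by 1.66-fold and Clec3b by 1.59-fold (adjusted p = 0.000315 and 0.000216), while the whole list of 14 adventitial genes had a median of log2 0.03.

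Some endothelial genes fell in each of the vessel lists. Of 13 general capillary markers 7 were lower and none higher (median log2 -0.41), with summed levels of 3225, 3658 and 4183 CPM in air and 2671, 2678, 2955, 2602 and 2519.9 CPM in smoke. Aplnr, the apelin receptor of these cells, stood at 67.9, 62.8 and 74.4 CPM in air and 37.9, 34.2, 38.1, 31.9 and 27.7 CPM in smoke (2.01-fold lower, log2 -1.01 ± 0.13 SE, adjusted p = 9.57e-05). Kit, the receptor for stem cell factor, was at 138, 148 and 219.8 CPM in air and 92.9, 103, 101, 83.2 and 84.2 CPM in smoke (1.81-fold lower, log2 -0.86 ± 0.14 SE, adjusted p = 0.00062). No smoke library overlapped with air in either gene. Among 13 markers of aerocytes, the large capillary cells of gas exchange, 6 were lower and 1 higher (median log2 -0.34), the latter not without air 1, air 2, air 3, smoke 1 or smoke 3. Car4, a carbonic anhydrase on their surface, stood at 135, 134 and 137 CPM in air and 93.3, 102, 83.4, 86.8 and 81.7 CPM in smoke (1.51-fold lower, log2 -0.60 ± 0.11 SE, adjusted p = 0.00132), and Apln, the ligand of the receptor above, was 1.69-fold lower (adjusted p = 0.00149). Arterial and venous markers had 6 of 18 lower and none higher (1 at an unadjusted p under 0.05, 0 by DESeq2, 1 by edgeR without smoke 2). The lower genes included Efnb2 (1.64-fold) and Hey1 (1.48-fold), both of the arterial Notch program. Cldn5, the tight junction claudin of endothelium, was at 496, 572 and 724 CPM in air and 316, 345, 329, 308 and 281 CPM in smoke (1.89-fold lower, log2 -0.92 ± 0.12 SE, adjusted p = 0.000107).

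Vegfa and its main receptor gene Kdr moved in opposite directions. Of 24 VEGF, angiopoietin and nitric oxide genes, 8 were lower and 1 higher (median log2 -0.26), or 2 higher without smoke 2. The one that rose was Vegfa, the growth factor that type 1 cells make for the capillaries, at 939, 748 and 986 CPM in air and 1392, 1377, 1439, 1068 and 1241 CPM in smoke (1.46-fold higher, log2 0.55 ± 0.11 SE, adjusted p = 0.00191). Its main receptor gene Kdr was at 381, 408 and 482 CPM in air and 286, 291, 297, 272 and 253 CPM in smoke (1.52-fold lower, log2 -0.60 ± 0.11 SE, adjusted p = 0.000903). In each, the 2 groups were apart. The receptor genes Flt4, Tie1 and Tek fell 1.54-, 1.62- and 1.46-fold (adjusted p = 0.00161, 0.000229 and 0.00165). Of the nitric oxide synthases, the inducible Nos2 was 2.40-fold lower (adjusted p = 0.00362), and the endothelial Nos3 was at 7.74, 9.39 and 14.98 CPM in air and 8.40, 7.77, 8.40, 9.17 and 8.39 CPM in smoke (log2 -0.34, adjusted p = 0.273), with overlap.

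Growth factor signalling changed gene by gene. Of 34 TGF-beta and BMP genes 8 were lower and 4 higher (median log2 -0.18), with 4 lower without air 3. Fstl1, a secreted BMP antagonist, stood at 184, 217 and 251 CPM in air and 121, 117, 112, 117 and 123 CPM in smoke (1.85-fold lower, log2 -0.89 ± 0.08 SE, adjusted p = 1.62e-06). Bmp4 itself was at 59.05, 56.2 and 52.2 CPM in air and 87.4, 83.4, 96.2, 79.1 and 78.4 CPM in smoke (1.52-fold higher, log2 0.61 ± 0.08 SE, adjusted p = 0.000101), and its receptor Bmpr1a and the signal carrier Smad9 rose 1.36-fold and 1.85-fold (adjusted p = 0.000677 and 0.000212). All 4 genes were separate between the groups. Of 34 Wnt genes 6 were lower and 3 higher (median log2 -0.04), and the number lower was 2 without air 3 and 3 without air 2, smoke 2 or smoke 5. Wnt3a and Wnt7a, 2 epithelial ligands, rose 1.55-fold and 1.67-fold, and Wnt5a, a ligand of fibroblasts, fell 1.68-fold (adjusted p = 0.00203, 0.00466 and 0.00615). Igf1, a growth factor of fibroblasts and macrophages, was at 38.3, 42.8 and 74.8 CPM in air and 23.5, 19.6, 22.9, 22.3 and 25.7 CPM in smoke (2.28-fold lower, log2 -1.19 ± 0.22 SE, adjusted p = 0.00275), with no overlap.

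Most markers of alveolar type 1 cells rose. Of 17 tested, 14 were higher and none lower, and the list median was log2 0.47. The summed level of the list was 15562, 14408 and 15022 CPM in air and 22947, 19885, 22126, 17306 and 19866 CPM in smoke. Smoke 4 had the lowest and smoke 1 the highest sum of the smoke libraries, while smoke 4 had the highest and smoke 1 the lowest sum of club cell markers. The part of airway content in the result was not tested. Rtkn2 (chr10:67979570-68059740) stood at 300.1, 243 and 287 CPM in air and 489, 431, 492, 359 and 412 CPM in smoke (1.58-fold higher, log2 0.66 ± 0.12 SE, adjusted p = 0.000772). Clic5, which links ion channels to the actin skeleton, was at 1082, 1093 and 1134 CPM in air and 1901, 1583, 1915, 1374 and 1643 CPM in smoke (1.53-fold higher, log2 0.61 ± 0.10 SE, adjusted p = 0.000672). Akap5, an anchor of protein kinase A, was at 686, 665 and 666 CPM in air and 1191, 946, 1152, 879 and 976 CPM in smoke (1.53-fold higher, log2 0.61 ± 0.12 SE, adjusted p = 0.00154). In these 3 genes the lowest smoke library, smoke 4, was still over the highest air library. Igfbp2, a binding protein of insulin-like growth factors found in mature type 1 cells, rose 1.61-fold and Spock2 1.45-fold (adjusted p = 0.00172 and 0.00718). The classical markers Ager (log2 0.45, adjusted p = 0.0153) and Hopx (log2 0.49, adjusted p = 0.0175) were called too, but not without air 2 or air 3, and without either of these libraries 8 of the 17 were higher. Aqp5, the water channel, was not called (log2 0.19, adjusted p = 0.313).

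Type 2 cell genes changed less. Of 22 surfactant and type 2 markers 5 were higher and none lower (1 lower at an unadjusted p under 0.05 and 1 by DESeq2; median log2 0.19), and the number higher ran from 1 to 8 as single male libraries were left out. Ctsh, a protease that matures surfactant protein, stood at 311, 314 and 315 CPM in air and 413, 431, 425, 418 and 429 CPM in smoke (1.35-fold higher, log2 0.43 ± 0.10 SE, adjusted p = 0.00855), with the groups apart. The surfactant genes Sftpc (log2 0.19, adjusted p = 0.34) and Sftpb (log2 0.03, adjusted p = 0.93) were not called. Epithelial ion transport held 4 genes higher and 2 lower of 20. Scnn1a, a subunit of the sodium channel ENaC that clears fluid from alveoli, was at 495, 483 and 401 CPM in air and 805, 702, 773, 624 and 638 CPM in smoke (1.54-fold higher, log2 0.62 ± 0.10 SE, adjusted p = 0.000315). The chloride channel gene Ano1 was 1.61-fold higher and the sodium pump subunit gene Atp1b2 2.10-fold lower (adjusted p = 0.000274 and 0.000431). The groups did not overlap in Scnn1a, and the number of ion transport genes higher was 2 without air 2. The number lower was 1 without air 2, air 3, smoke 2, smoke 3 or smoke 5. None of 12 club cell, 20 ciliated cell or 15 goblet cell and mucin genes was called in either direction by edgeR. At an unadjusted p under 0.05 these lists had 1, 2 and 4 genes, and DESeq2 called 0, 1 and 2. By edgeR 2 club cell genes were lower without smoke 4, 1 ciliated cell gene was higher without air 2 or smoke 2, and 1 mucin or goblet cell gene was higher without air 2 or smoke 4. Muc5b, the main airway mucin, ran from 2.68 to 102 CPM within smoke.

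Genes that make fatty acids rose in part. Of 23 tested, 7 were higher and none lower (1 at an unadjusted p under 0.05, 0 by DESeq2; median log2 0.25), and 4 were higher without air 2 or air 3. Scd1, the desaturase that makes oleic acid, stood at 1651, 1310.4 and 1383 CPM in air and 3928, 3159, 2843, 3044 and 3558 CPM in smoke (2.28-fold higher, log2 1.19 ± 0.21 SE, adjusted p = 0.00218). Scd2, its sister enzyme, was at 1286, 1112 and 1186 CPM in air and 2003, 1818, 1872, 1566 and 1777 CPM in smoke (1.51-fold higher, log2 0.60 ± 0.10 SE, adjusted p = 0.000592). Elovl1, which lengthens long fatty acids, rose 1.39-fold (adjusted p = 0.00525). In Scd1 and Scd2 all smoke libraries were over all air libraries. Fasn, the synthase itself, did not pass (log2 0.30, adjusted p = 0.132), and Thrsp, a lipogenic gene of fat and liver, was at 9.50, 7.34 and 5.35 CPM in air and 32.4, 22.7, 13.4, 38.2 and 43.8 CPM in smoke (4.06-fold higher, log2 2.02 ± 0.49 SE, adjusted p = 0.0207), a call that was lost without air 2 or air 3. Cpt1a, which brings fatty acids into mitochondria for oxidation, was 1.49-fold lower (adjusted p = 0.00907). Among 17 adipocyte genes 3 were higher and 1 lower, with 1 higher without air 3 and none lower without air 1, air 2, smoke 2, smoke 3 or smoke 5. Those higher were Lep, Retn and Mrap (log2 2.23, 1.73 and 1.93, adjusted p = 0.0136, 0.00942 and 0.00736). The one lower was Pck1 (log2 -2.34, adjusted p = 0.0468). Only in Mrap were the groups apart. The adipocyte hormone gene Adipoq was not called, and ran from 8.86 to 17.1 CPM in air and from 6.69 to 19.9 CPM in smoke (log2 0.26, adjusted p = 0.695). The part of fat tissue in the result was not tested.

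The clock genes changed in both of their arms, which went opposite ways. The hour at which the lungs were collected was not given in the sources used here. Its part in these changes, and in those of the glucocorticoid receptor targets below, was not tested. Of 6 genes of the BMAL1 arm, 5 were higher and none lower (median log2 0.84), and of 13 Per, Rev-erb and PAR-bZIP genes, 9 were lower and none higher (median log2 -1.11). Without air 1 the BMAL1 arm had 2 genes called higher. Leaving out single male libraries left 8 to 10 genes of the Per arm called lower. Promoters of 4 clock genes are shown for the response elements through which the loop is known to run. They are from RefSeq on GRCm38.p6, run from 250 bases before the start of the gene to 50 after it, and are given in the direction of transcription with the matches in capitals. The capitals mark the ROR element core TAGGTCA in Arntl (chr7:113207261-113207560, plus strand), the E-box CACGTG in Per1 (chr11:69098699-69098998, plus strand) and Tef (chr15:81802423-81802722, plus strand), and the D-box TTATGTAA in Per3 (chr4:151044616-151044915, minus strand).
Arntl: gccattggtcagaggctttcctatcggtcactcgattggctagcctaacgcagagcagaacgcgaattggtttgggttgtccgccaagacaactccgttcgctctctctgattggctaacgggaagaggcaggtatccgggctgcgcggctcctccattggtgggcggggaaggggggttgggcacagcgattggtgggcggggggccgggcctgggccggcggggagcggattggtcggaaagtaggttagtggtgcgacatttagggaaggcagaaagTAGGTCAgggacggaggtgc
Per1: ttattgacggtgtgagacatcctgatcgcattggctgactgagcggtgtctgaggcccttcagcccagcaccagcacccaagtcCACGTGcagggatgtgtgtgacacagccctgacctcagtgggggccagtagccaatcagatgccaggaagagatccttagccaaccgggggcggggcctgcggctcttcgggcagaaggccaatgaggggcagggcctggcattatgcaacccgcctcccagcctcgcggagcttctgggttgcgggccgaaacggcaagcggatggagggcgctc
Tef: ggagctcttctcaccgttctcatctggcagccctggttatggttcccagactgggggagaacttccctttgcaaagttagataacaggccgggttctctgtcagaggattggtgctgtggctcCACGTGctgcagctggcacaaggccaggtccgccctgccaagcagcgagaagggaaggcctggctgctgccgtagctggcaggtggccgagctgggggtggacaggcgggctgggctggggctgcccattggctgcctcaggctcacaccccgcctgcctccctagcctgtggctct
Per3: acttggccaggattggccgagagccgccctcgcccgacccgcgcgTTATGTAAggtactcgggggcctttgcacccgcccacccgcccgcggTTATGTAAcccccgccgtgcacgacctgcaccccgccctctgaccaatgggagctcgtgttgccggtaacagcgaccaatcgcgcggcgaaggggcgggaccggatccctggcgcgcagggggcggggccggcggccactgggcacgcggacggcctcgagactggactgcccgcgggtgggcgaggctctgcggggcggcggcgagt

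Both strands were searched, and no matches overlapped in the sequences printed. RefSeq has 2 promoters each for Arntl, Per1 and Tef, and the motif is in 1 of the 2 for Arntl and Per1 and in both for Tef. The Per1 E-box begins 166 bases before the start and that of Tef 127 bases before it. The Arntl match begins at base 31 after the start, and the 2 in Per3 begin 205 and 158 bases before it. Of 13 promoters found for 11 of the 13 Per arm symbols, 5 (38.5%) held CACGTG, in Bhlhe41, Ciart, Per1 and Tef, against 7.15% of all 32851 promoters. TAGGTCA was in 2 of 8 promoters of the BMAL1 arm, those of Arntl and Nfil3, against 2.61% of all promoters. TTATGTAA was in 1 of the 13 Per arm promoters and in 0.938% of all. CACGTG was also in 1 of 8 promoters of the BMAL1 arm (12.5%, Cry1). In the list of glucocorticoid receptor targets described below it was in 5 of 27 (18.5%). The other pairs of these motifs and lists had 0 matches. Of the genes with a match, Nfil3, Bhlhe41 and Ciart were not called. A match is a description of the sequence only.

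In the BMAL1 arm, Arntl, which codes for BMAL1, stood at 14.2, 14.8 and 21.3 CPM in air and 40.9, 37.98, 40.9, 39.96 and 36.9 CPM in smoke. Smoke libraries lay in a narrow band over the air libraries, of which air 3 was the highest (2.34-fold higher, log2 1.23 ± 0.16 SE, adjusted p = 6.64e-05). Cry1, a repressor whose RNA peaks close in time to that of Arntl, was at 10.7, 17.1 and 15.9 CPM in air and 29.7, 25.8, 33.3, 31.5 and 23.1 CPM in smoke (1.97-fold higher, log2 0.98 ± 0.16 SE, adjusted p = 0.000489). Npas2 and Clock, the partners of BMAL1, rose 2.22-fold and 1.41-fold (adjusted p = 0.00963 and 0.0097), but Clock was not called without air 1, nor Npas2 without air 1 or air 2.

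On the opposing arm, Per1 stood at 116, 156 and 157 CPM in air and 33.4, 28.04, 30.6, 33.6 and 47.8 CPM in smoke (4.12-fold lower, log2 -2.04 ± 0.22 SE, adjusted p = 0.000107). Smoke 5 was the highest of the smoke libraries and still far under air. Per2 and Per3, the other Period repressors, fell 2.75-fold and 2.20-fold (adjusted p = 0.000743 and 0.00119). Nr1d1, coding for REV-ERB alpha, the direct repressor of Arntl, was at 183, 143 and 90.3 CPM in air and 35.4, 41.9, 57.6, 31.7 and 47.7 CPM in smoke (3.24-fold lower, log2 -1.70 ± 0.24 SE, adjusted p = 0.000624). Nr1d2 was at 116, 118 and 78.1 CPM in air and 33.1, 35.3, 40.6, 32.1 and 51.4 CPM in smoke (2.71-fold lower, log2 -1.44 ± 0.18 SE, adjusted p = 0.000229). Air 3 was the lowest air library in both and still over each smoke library. Dbp, an output activator that binds D-boxes, was at 75.7, 58.2 and 19.2 CPM in air and 4.98, 6.13, 5.92, 5.15 and 10.2 CPM in smoke (7.89-fold lower, log2 -2.98 ± 0.42 SE, adjusted p = 0.000781). Here too air 3 lay between air 1 and air 2 on one side and smoke on the other. Tef and Hlf, which bind the same element, fell 1.32-fold and 1.86-fold (adjusted p = 0.0136 and 0.00238), and Tef was not called without air 2. Bhlhe40, a repressor of the same E-boxes, fell 1.61-fold (adjusted p = 0.00165). Bhlhe41 (log2 -0.32, adjusted p = 0.191), Cry2 (log2 -0.18, adjusted p = 0.264) and Ciart (log2 -0.74, adjusted p = 0.0991) were not called.

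A part of the glucocorticoid receptor targets fell. Of 20 tested, 9 were lower and 1 higher (median log2 -0.60), and Per1 is in this list as well as in that of the clock. Zbtb16, a transcription factor induced by glucocorticoids, stood at 23.7, 69.4 and 34.1 CPM in air and 12.3, 8.30, 7.52, 13.7 and 9.05 CPM in smoke (4.16-fold lower, log2 -2.06 ± 0.31 SE, adjusted p = 0.00121). Tsc22d3, coding for the glucocorticoid-induced leucine zipper, was at 282, 375 and 346 CPM in air and 147, 136, 133, 143 and 172 CPM in smoke (2.29-fold lower, log2 -1.19 ± 0.20 SE, adjusted p = 0.00203). No smoke library reached the air range of either gene, although air 2 was far over the other air libraries for Zbtb16. Ddit4, an inhibitor of the growth kinase mTOR, was at 27.5, 51.9 and 62.95 CPM in air and 15.8, 14.7, 15.4, 18.2 and 17.2 CPM in smoke (2.91-fold lower, log2 -1.54 ± 0.21 SE, adjusted p = 0.000245), and Hif3a fell 2.97-fold (adjusted p = 0.00134). Fkbp5, a co-chaperone of the receptor, was 1.57-fold lower (adjusted p = 0.0271), and its call was lost without air 2, smoke 3 or smoke 5. The gene that rose was Lcn2, also on the neutrophil list (log2 0.43, adjusted p = 0.044), and its call was lost without any 1 of 7 of the 8 male libraries. The receptor gene Nr3c1 was not called (log2 0.18, adjusted p = 0.143).

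**Figure D4:**
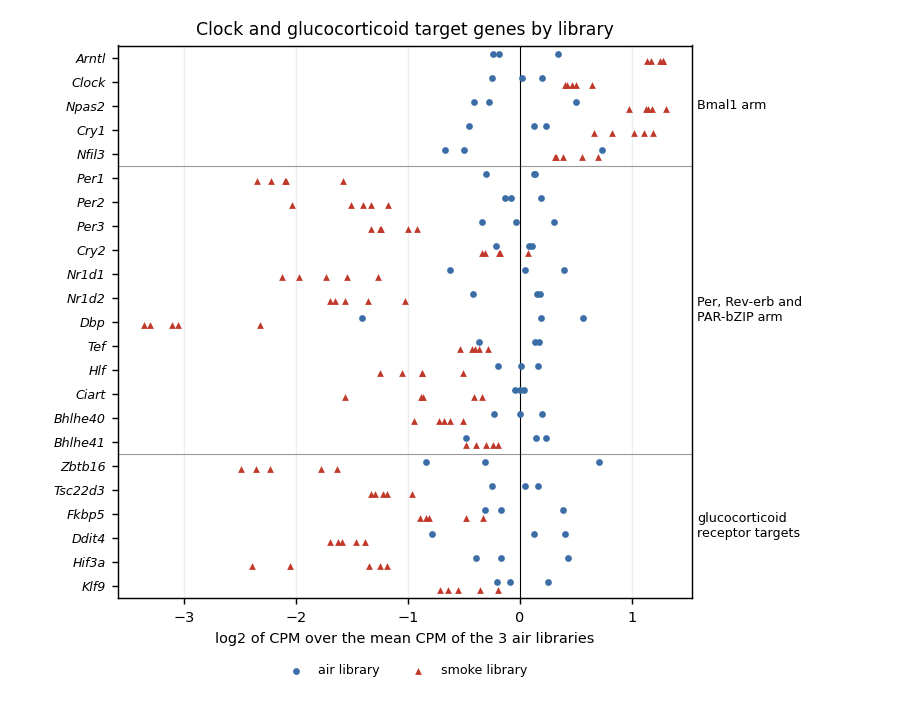
Log2 of CPM over the mean of the 3 air libraries for clock genes and glucocorticoid receptor targets, with air libraries as circles and smoke libraries as triangles. Smoke lies right of air for Arntl and left of it for Per1, Nr1d1, Dbp and Zbtb16, with air 3 nearest to smoke for Dbp.

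Several neutrophil genes rose. Of 16 tested, 6 were higher and none lower (median log2 0.61), with 3 higher without any 1 of the air libraries, and the summed level was 249, 272 and 195 CPM in air and 324, 363, 269.7, 358 and 329 CPM in smoke. S100a8, a subunit of the antimicrobial complex calprotectin, stood at 12.5, 6.69 and 7.01 CPM in air and 28.04, 29.3, 21.2, 26.1 and 25.1 CPM in smoke (2.97-fold higher, log2 1.57 ± 0.27 SE, adjusted p = 0.00156). Clec4d, a C-type lectin receptor, was at 1.82, 2.64 and 2.20 CPM in air and 4.83, 4.91, 5.25, 5.00 and 5.44 CPM in smoke (2.29-fold higher, log2 1.19 ± 0.24 SE, adjusted p = 0.00237). The groups did not overlap in these, and both calls held without each male library. Il1b, the inflammatory cytokine, rose 2.47-fold (adjusted p = 0.0112), and was not called without air 1 or air 2. Csf3r, the receptor that defines the lineage, was at most 12.3 CPM in air and at least 12.8 CPM in smoke (log2 0.51, adjusted p = 0.164), and it did not pass.

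Of 35 chemokine ligand genes 5 were higher and 4 lower (median log2 0.12), and 2 were lower without air 3. Cxcl5, a neutrophil attractant made by alveolar epithelium, was at 0.0586, 0.470 and 0.713 CPM in air and 2.08, 7.01, 1.82, 4.85 and 3.34 CPM in smoke (9.15-fold higher, log2 3.19 ± 0.73 SE, adjusted p = 0.0104), with few counts in air. Ppbp, another ligand of the same receptor, stored in platelets, was at 16.1, 16.7 and 10.8 CPM in air and 43.7, 26.6, 35.3, 38.05 and 24.1 CPM in smoke (2.31-fold higher, log2 1.21 ± 0.22 SE, adjusted p = 0.00182). Ccl8, which draws monocytes and T cells, was at 0.469, 0.939 and 1.13 CPM in air and 3.64, 3.74, 3.98, 2.30 and 4.07 CPM in smoke (4.16-fold higher, log2 2.06 ± 0.45 SE, adjusted p = 0.00453). Every smoke library was over every air library in these 3 genes. Cxcl14, an epithelial and stromal chemokine, went down, at 241, 206 and 334 CPM in air and 90.7, 95.9, 99.03, 111 and 102 CPM in smoke (2.61-fold lower, log2 -1.39 ± 0.15 SE, adjusted p = 2.98e-05), as did Cxcl12, which retains progenitors and guides vessels (1.47-fold, adjusted p = 0.00176). Ccl22, a dendritic cell ligand for regulatory T cells, was 1.79-fold lower (adjusted p = 0.0082), a call that was lost without air 3. Cxcl13, the B cell attractant of lymphoid follicles, was at 1.29, 5.93 and 2.08 CPM in air and 11.2, 12.6, 5.86, 11.8 and 13.8 CPM in smoke (log2 1.83, adjusted p = 0.0358). Smoke 3 overlapped with air 2 there, and the call was lost without any 1 of 6 of the 8 male libraries.

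Monocyte and dendritic cell genes changed singly. Of 10 classical monocyte markers 2 were higher and 2 lower (median log2 0.18). The lower ones include Vcan, given above among the proteoglycans (log2 -0.93, adjusted p = 0.0121). The summed level of the list was 2472, 2817 and 1856 CPM in air and 1525, 1466, 1576, 2298 and 1903 CPM in smoke. Ly6c2, which marks inflammatory monocytes and has a close copy, Ly6c1, with which reads could be shared, was at 10.3, 11.6 and 11.7 CPM in air and 28.3, 21.3, 20.7, 21.5 and 23.2 CPM in smoke (2.05-fold higher, log2 1.03 ± 0.16 SE, adjusted p = 0.000226), with no overlap. Ccr2, the receptor that brings these cells out of the marrow, overlapped between the groups (log2 0.46, adjusted p = 0.0385), and its call was lost without air 2, air 3, smoke 2, smoke 4 or smoke 5. Of 11 markers of type 2 conventional dendritic cells 2 were lower and none higher (median log2 -0.02), with 1 lower without air 3. Their summed level overlapped, at 841, 906 and 806 CPM in air and 623, 718, 649, 1017 and 884 CPM in smoke. Mgl2, a lectin of these cells, was at 36.2, 30.5 and 31.1 CPM in air and 14.6, 21.7, 19.6, 23.6 and 20.99 CPM in smoke (1.62-fold lower, log2 -0.69 ± 0.14 SE, adjusted p = 0.00207), with the groups apart. Flt3, the growth factor receptor of the dendritic lineage, was at 3.46, 3.82 and 4.87 CPM in air and 3.12, 2.51, 2.27, 2.45 and 2.36 CPM in smoke (log2 -0.67, adjusted p = 0.0597) and did not pass although the groups were apart. Among 13 MHC class II genes 3 were higher and 1 lower (median log2 0.28), with H2-Aa at 464, 399 and 529 CPM in air and 686, 632, 614, 648 and 596 CPM in smoke (1.37-fold higher, log2 0.45 ± 0.10 SE, adjusted p = 0.00547). Without air 2 the number higher was 1 and H2-Aa was not called. The call lower was lost without any 1 of 7 of the 8 male libraries. Il33, an alarm cytokine of type 2 cells and stroma, rose 1.73-fold (adjusted p = 0.000548), while its receptor gene Il1rl1 fell 1.78-fold (adjusted p = 0.0174), not without air 2 or air 3.

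Some antibody and platelet genes were higher. Igj, the J chain that joins IgA and IgM, stood at 1.29, 10.3 and 5.35 CPM in air and 33.8, 81.97, 36.7, 92.1 and 43.1 CPM in smoke (10.2-fold higher, log2 3.35 ± 0.73 SE, adjusted p = 0.0121). All smoke libraries were over all air libraries, but the values spread widely within both groups, and the call was lost without air 3. Of 18 plasma cell and antibody constant genes 2 were higher (median log2 1.11), and 0 to 2 were higher as single male libraries were left out. At an unadjusted p under 0.05 by edgeR 11 of the 18 were higher, and DESeq2 called 9 higher. Of 14 platelet genes 5 were higher and none lower (median log2 0.49), with 3 without air 3. Clec1b, the podoplanin receptor of platelets, was at 6.16, 6.52 and 5.53 CPM in air and 13.5, 10.5, 13.4, 10.6 and 11.3 CPM in smoke (1.95-fold higher, log2 0.96 ± 0.16 SE, adjusted p = 0.00055), and Itgb3, a chain of the fibrinogen receptor, rose 1.40-fold (adjusted p = 0.00336). The platelet chemokine gene Pf4 was not called (log2 0.23, adjusted p = 0.436). None of 13 erythroid genes was called by edgeR or DESeq2 (median log2 0.40), and 1 was higher at an unadjusted p under 0.05. Without air 3, the air library with the most red cell RNA, 5 of the 13 were called higher. The part of blood content in the platelet result was not tested.

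Over all genes 10.3% were called, the share to set beside the counts for the responses to combustion products and oxidants. None of 11 aryl hydrocarbon receptor genes passed edgeR's quasi-likelihood test or that of DESeq2, and 3 had an unadjusted p under 0.05. Without any 1 of the air libraries 1 was lower. Cyp1a1 was at 11.96, 9.04 and 172 CPM in air and 7.36, 18.8, 9.95, 10.9 and 14.6 CPM in smoke (log2 -2.38, adjusted p = 0.0656), and without air 3 its difference turned to log2 0.23 (adjusted p = 0.779). Of 30 NRF2 oxidative stress genes 2 were higher and 2 lower (median log2 -0.05). The number lower was 4 without smoke 4 and 1 without air 2, and the number higher 1 without air 1 or air 2. Among textbook targets of NRF2, Nqo1 (log2 -0.32, adjusted p = 0.445) and Hmox1 (log2 -0.26, adjusted p = 0.107) were not called. Gclc, another such target, was called 1.26-fold higher (log2 0.33 ± 0.09 SE, adjusted p = 0.0212), with the groups apart. Gsta3, a glutathione transferase, was at 226, 215 and 199 CPM in air and 314, 307, 294, 373 and 348 CPM in smoke (1.53-fold higher, log2 0.62 ± 0.09 SE, adjusted p = 0.000253). Sod3, the superoxide dismutase of the extracellular matrix, was at 745, 708 and 877 CPM in air and 349, 339, 457, 393 and 361 CPM in smoke (2.05-fold lower, log2 -1.03 ± 0.12 SE, adjusted p = 1.32e-05). Both were separate between the groups. Gdf15, a stress hormone, was not called (log2 -0.73, adjusted p = 0.277).

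Immediate early genes, whose transcription starts soon after a stimulus, were more often called lower than higher. Of 22 tested 8 were lower and 1 higher (median log2 -0.64), and 1 was lower without air 3. Their summed level was 2657, 3135 and 3823 CPM in air and 2163, 2188, 2225, 2346 and 2308 CPM in smoke. Zfp36, which destabilises cytokine RNA, was at 124, 157 and 173 CPM in air and 78.6, 75.5, 82.2, 83.7 and 82.04 CPM in smoke (1.88-fold lower, log2 -0.91 ± 0.10 SE, adjusted p = 7.52e-06), and it kept its call without each male library. Klf2 and Klf4, factors of quiescent endothelium, fell 1.94-fold and 1.52-fold (adjusted p = 0.00864 and 0.0108), neither of them called without air 3. Ier3, a survival gene, rose, at 181, 111 and 125 CPM in air and 265, 279.8, 219.6, 224 and 243 CPM in smoke (1.77-fold higher, log2 0.83 ± 0.15 SE, adjusted p = 0.00225). Among 22 senescence and p53 genes 2 were higher and 3 lower, with Cdkn2b, a cell cycle inhibitor, 1.64-fold higher and Ccng1, a p53 target, 1.45-fold higher (adjusted p = 0.00191 and 0.000151). None of 24 proteasome genes and none of 30 nuclear genes of the respiratory chain was called by edgeR. Each list had 3 genes at an unadjusted p under 0.05, and DESeq2 called 2 and 0. By edgeR 1 proteasome gene was higher without smoke 2 or smoke 3, and 1 respiratory chain gene was lower without air 3 or smoke 4. By contrast 5 of 12 mitochondrially encoded genes were higher, 1 to 6 as single male libraries were left out.

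Liver genes differed between the air libraries. Of 16 tested 13 were called lower (median log2 -6.79), but Alb, coding for albumin, was at 259, 50.01 and 1.78 CPM in air and 0.595, 0.876, 1.38, 0.686 and 0.525 CPM in smoke. Air 1 and air 2 were high and air 3 was near the smoke libraries. Without air 1, 2 of the 16 were called lower, and Alb was not. Without single smoke libraries 6 to 8 were. For the fibrillar collagen, pericyte, general capillary, type 1 cell, neutrophil, platelet and both clock lists, the direction with no call also held 0 members at an unadjusted p under 0.05, by DESeq2 or by limma.

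**Figure D5:**
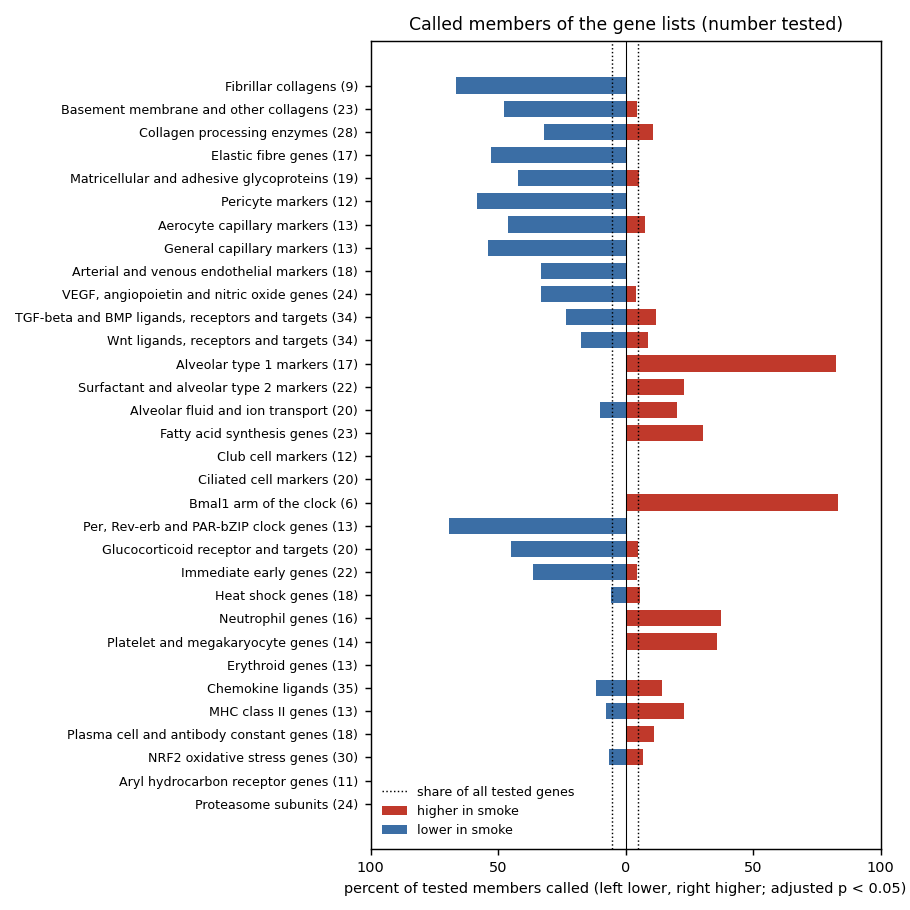
Percent of the tested members of the gene lists drawn that were called higher (right) or lower (left) in smoke, with the number tested in brackets and dotted lines at the shares over all genes, 4.93% higher and 5.33% lower. Of the lists drawn, which leave out liver genes, type 1 cell markers and the BMAL1 arm reach furthest right, and fibrillar collagens and the Per arm furthest left.

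Females under the same exposure had 1257 genes called (7.68%), of which 737 were higher (4.5%) and 520 lower (3.18%). The test of the difference between the sexes called 1 gene of 16361 (0.00611%) by edgeR's quasi-likelihood test, 940 genes at an unadjusted p under 0.05, and 17 genes by DESeq2. Chance alone would put a share of about 0.05 of the 16361 genes under that unadjusted threshold, so the 940 are no count of sex-dependent genes. The gene called by edgeR is Plcb1 (chr2:134786159-135475258), coding for a phospholipase C that acts downstream of G protein-coupled receptors. In males it stood at 37.6, 29.3 and 34.8 CPM in air and 17.3, 17.4, 13.05, 19.4 and 14.5 CPM in smoke (2.08-fold lower, log2 -1.05 ± 0.13 SE, adjusted p = 5.05e-05). In females it was at 18.6, 19.4 and 18.2 CPM in air and 19.97, 19.02, 27.97, 22.5 and 24.4 CPM in smoke, with overlap (log2 0.28, adjusted p = 0.245). Male air was over all other groups, and the difference of the log2 fold changes was -1.34 ± 0.19 (SE; adjusted p = 0.0128). It was no longer called without male air 1 (0.0512), male air 3 (0.0549), female air 1 (0.0833) or female air 3 (0.0819). No other gene named above was called for a difference between the sexes. Col1a1 changed by log2 -1.77 in males and -1.25 in females, Arntl by 1.23 and 1.60, Per1 by -2.04 and -0.93, and Scd1 by 1.19 and 0.54. Their differences had adjusted p-values of 0.793, 0.882, 0.748 and 0.854. For red cell genes the counts were unlike, 0 of 13 higher in males (5 without male air 3) and 11 of 13 in females, where the medians were log2 0.40 and 2.23. The difference for Alas2, which makes heme, was -2.13 ± 0.58 (adjusted p = 0.72), so it did not pass the test.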

How the data were processed

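Raw counts per Ensembl gene were used as deposited by the authors (35275 genes). Per the submitters' processing notes, FastQC and the builds GRCm38 and mm10 were used. The aligner, the counting program and its strand setting were not given in the sources used here. Per the labels' protocols, Trizol was used to isolate RNA and the NEBNext Ultra 2 kit to make libraries. A second table deposited by the authors (35186 genes) holds TPM values. Its unit is not named, and it was settled from the values: 100% equal count over gene length, scaled, within 1e-06. Coordinates of genes are those of the deposited count table.

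Counts were fitted with edgeR 4.0.16 (R 4.3.3): filterByExpr, TMM scaling and a robust quasi-likelihood fit of the 4 groups of 16 libraries in air or smoke without surgery, so that the spread is shared. Male smoke minus male air, and its difference from females, were tested over 16361 genes with Benjamini-Hochberg adjustment at 0.05. Fold changes are fitted and errors are standard errors. The fit was tested on simulated data with 200 of 16361 genes changed. It recovered 79% of the 2-fold and 50% of the 1.5-fold changes, and 6.5% of the genes called were false. A gene that was not called may therefore still differ. Alternatives were RLE scaling, no filter beyond 1 count, a stricter filter (3 libraries with a CPM of 1 or more), only the 2 male groups, all 32 libraries, DESeq2 1.42.0, limma 3.58.1 on log2(TPM + 1) and log2(TPM + 0.1), the replicate number as a block, and leaving out each library. Of 1473 entries in 80 gene lists 1469 matched a gene of the table. The members and lists were chosen with earlier results of these data known. Named genes include the 10 largest rises and 10 largest falls among called genes with mean log2 CPM of at least 1 and groups apart. Also named are a panel of 30 genes, all called members of the lists, and Nrn1 and Plcb1. A selection of these and of uncalled list members is printed, made after their values were seen. Results of some genes are not reported here. Precision is set by the depth, 13.84 to 20.78 megacounts in male libraries, and by 3 and 5 libraries per group. Promoters were scanned with Python 3.11.15 and plots were drawn with matplotlib 3.10.9.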

Additional observations from a re-analysis of the deposited data

Results flagged for a closer look

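A rule for single libraries that lie far from the other 4 of a group was applied in smoke, where chance alone marks about 1 group in 20. It was run on the panel of 30 genes and on the 10 largest rises and 10 largest falls, which overlap in part. The rule marked 5 genes. Dbp was highest in smoke 5 at 10.2 CPM, with the other smoke libraries between 4.98 and 6.13 CPM, and Per1 was highest in the same library at 47.8 CPM, with the others between 28.04 and 33.6 CPM. Ccl8 was lowest in smoke 4 at 2.30 CPM, against 3.64 to 4.07 CPM. Col3a1 was highest in smoke 2 at 498 CPM, against 459 to 467 CPM, and Flt3 was highest in smoke 1 at 3.12 CPM, against 2.27 to 2.51 CPM. All 5 values lay outside the range of the air libraries for the same gene. Plcb1 was marked for a smoke effect that differed between the sexes, by a log2 fold change of -1.34 in males relative to females.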

How the results depend on the processing

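Of 303 named genes with a call, 149 kept it without each of the 8 male libraries in turn, 140 of them also under every other alternative, and none reversed. Of all 1678 called genes, 629 kept the call without each library. limma called 992 genes on log2(TPM + 1) and 991 on log2(TPM + 0.1), of which 394 and 403 were higher (39.7% and 40.7%). Without single male libraries 962 to 1694 genes were called, 421 to 832 of them higher and 523 to 935 lower. Without single female libraries, which share the fit, the ranges were 1604 to 1809, 680 to 806 and 835 to 1103. For the difference between sexes 3 genes were called with all 32 libraries in 1 fit, 17 by DESeq2, 0 and 0 by limma on the 2 scales, and 0 to 4 without single libraries. Of 984 list genes without a call, 294 took both signs as single male libraries were left out. Among the genes recomputed under all alternatives, 3 changed sign, none of them called: Cyp1a1 ranged from -2.93 to 0.23 (without air 3, adjusted p = 0.779), Ddx3y from -0.08 (without air 1) to 0.14, and Mmp12 from -0.44 to 0.05 (without air 2), on the log2 scale. For Cyp1a1 the alternative removes the 1 library at 172 CPM, and for the others the cause was not tested. The other counts over all genes stayed within 1.5 times.

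Same-numbered air and smoke libraries correlated by -0.13, -0.11 and 0.35 in their deviations from the group means, so the numbers were not taken as pairs. With the replicate number as a block 1501 genes were called, and 0 for the difference between sexes. Of the 303 named genes 260 kept their call under this block. Cxcl5, Fkbp5 and Thrsp were among the 43 that lost it. The depth limits genes near 1 CPM, such as Cxcl5 in air.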
